A study of Mus musculus with 12 samples.

Results

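The 10 genes described here, Klhl24, Calcoco1, Tcp11l2, Nuak1, Sesn1, Sesn3, Ccng2, Pik3ip1, Txnip and Cited2, are genes of the kind that FoxO transcription factors switch on when growth signals fall. They were taken by gene symbol from an RNA-seq table of 55806 genes, in which each symbol had 1 row, and 8 of the 10 were among the 12237 genes that reached 1 FPKM in at least 3 libraries. FPKM counts fragments per kilobase of gene, scaled to the depth of the library. The 10 genes were chosen by their FPKM in the male comparison of these same libraries, where several of them lay low in the libraries labelled knockout. Male values of the 10 genes are therefore given below as a description, with no test.

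The 12 libraries came from osteoclasts, multinucleated cells that resorb bone, grown from bone marrow monocytes with M-CSF and RANKL. The mice were 8 to 12 weeks old, and the cells were taken on day 4 of differentiation. There were 4 groups of 3 libraries: female mice labelled Per1 knockout, female controls, male mice labelled Per1 knockout and male controls. The names of the knockout libraries carry "cKO", but the labels state no deleted exon, Cre driver or strain. PER1 is a repressor protein of the circadian clock. The titles number the libraries within each group, and this number was used as a possible batch. The labels call each library a biological replicate, without saying whether it is a separate animal or culture, and the tests rest on the spread between these libraries.

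FoxO factors are held in the cytoplasm when PI3K and Akt are active, and enter the nucleus when insulin or growth factor signalling is low. There they induce genes that slow the cell cycle, restrain mTORC1, feed autophagy and lower glucose use. In mice, FoxO factors of the myeloid lineage are known to restrain osteoclast formation by keeping hydrogen peroxide low. Several of the 10 genes also answer to other inputs, such as p53 for Sesn1 and the glucose sensor MondoA (Mlxip) for Txnip, so the name of the group says what kind of genes they are and not what drives them in these cells.

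The libraries held 15366600 to 24346288 fragments, and the floor of 3 fragments is worth 0.119 to 0.188 FPKM on a 1 kb gene, which covers counting error only. Per1 itself did not follow the genotype labels, and its groups overlapped in both sexes. It stood at 2.82 to 4.04 FPKM in female libraries labelled knockout and 2.46 to 3.33 FPKM in female controls, and at 2.36 to 2.99 FPKM in male libraries labelled knockout and 2.69 to 3.70 FPKM in male controls. FPKM summed over a whole gene cannot show the loss of a part of it, so every direction below is between libraries labelled knockout and libraries labelled control. All 14 osteoclast markers were detected in every library. Of the female libraries, knockout 1, knockout 2 and control 2 stood apart by a high interferon response, with 778, 1015 and 903 FPKM summed over 12 interferon genes against 81.0 to 256 FPKM in the other 9 libraries. In bulk RNA, fewer cells of a type and less RNA per cell cannot be told apart.

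The genes spanned a wide range of levels, and their order was the same in all 4 groups. Txnip and Cited2 were the most abundant, at the 97.0 and 95.5 percentile of the tested genes by control level. Tcp11l2, Klhl24, Sesn1 and Ccng2 followed, then Calcoco1 at the 49.9 percentile and Nuak1 at the 26.7 percentile. Pik3ip1 and Sesn3 came last and were the 2 genes that did not pass the filter on low FPKM. Neighbours in this order were not always apart: the libraries of Tcp11l2 and Klhl24 overlapped in every group but the male libraries labelled knockout, and those of Txnip and Cited2 overlapped there. In that group Pik3ip1 and Sesn3 also overlapped, as they did in male controls, and Klhl24 and Sesn1 overlapped in female libraries labelled knockout. Behind these values stood 3954 to 8712 fragments a library for Txnip, 90 to 383 for Nuak1, 69 to 162 for Sesn3 and 20 to 89 for Pik3ip1.

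Promoter sequences from RefSeq on GRCm38.p6 were at hand for 9 of the 10 genes, as 10 windows of 300 bases, from 250 before the transcription start to 50 after it. They were searched on both strands for the FoxO element GTAAACA and for the E-box CACGTG, the kind of site that clock activators and Myc bind. The FoxO element was found once for Txnip, at -121 to -115 from the start, and once for Sesn1, at 23 to 29 after it and on the other strand (TGTTTAC). Sesn1 also had a second window, at chr10:41887189-41887488, which held neither motif. The E-box was found once, for Cited2, at -153 to -148. The same letters occur in 3.65% and 7.15% of 32851 promoters, so a match is a description of these windows and not a site shown to be bound. The 3 windows with a match are shown because they are the promoters of the group that hold either motif, which is in capitals. Their positions are chr3:96557707-96558006 for Txnip, chr10:41810324-41810623 for Sesn1 and chr10:17722978-17723277 for Cited2, all on the plus strand.
Txnip: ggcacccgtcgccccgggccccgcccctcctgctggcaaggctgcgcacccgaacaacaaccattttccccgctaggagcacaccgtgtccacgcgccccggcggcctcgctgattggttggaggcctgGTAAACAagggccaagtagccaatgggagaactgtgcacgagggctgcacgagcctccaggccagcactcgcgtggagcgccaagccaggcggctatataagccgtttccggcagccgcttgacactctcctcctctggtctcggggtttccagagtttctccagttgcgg
Sesn1: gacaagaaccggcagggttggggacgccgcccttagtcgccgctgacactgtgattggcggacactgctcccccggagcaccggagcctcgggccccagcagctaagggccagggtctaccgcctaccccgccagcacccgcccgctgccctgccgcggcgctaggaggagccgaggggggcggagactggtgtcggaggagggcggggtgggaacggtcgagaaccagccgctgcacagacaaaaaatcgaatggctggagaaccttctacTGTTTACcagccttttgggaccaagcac
Cited2: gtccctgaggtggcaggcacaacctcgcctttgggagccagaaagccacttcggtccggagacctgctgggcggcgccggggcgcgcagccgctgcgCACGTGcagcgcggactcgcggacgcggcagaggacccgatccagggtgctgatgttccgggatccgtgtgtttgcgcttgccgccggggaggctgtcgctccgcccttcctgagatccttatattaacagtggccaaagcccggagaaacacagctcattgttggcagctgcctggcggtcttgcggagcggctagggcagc

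Of the brakes on growth signalling, Sesn1 and Sesn3 had groups that were apart in males and overlapped in females, while those of Pik3ip1 overlapped in males and were apart in females. Sesn1 (ENSMUSG00000038332, chromosome 10) encodes a sestrin, a stress-induced protein that binds GATOR2 and so restrains mTORC1. In males Sesn1 stood at 9.64, 9.60 and 10.9 FPKM in libraries labelled knockout, against 17.7, 13.7 and 14.8 FPKM in controls. All 3 male libraries labelled knockout lay below all 3 controls, at 65.3% of the control mean, a difference of -0.56 (SE 0.0879) on the log2(FPKM + 1) scale. In females Sesn1 stood at 15.01, 15.5 and 16.5 FPKM in libraries labelled knockout, against 16.0, 16.2 and 15.8 FPKM in controls. The female groups overlapped, with a difference of -0.03 (SE 0.0879, limma adjusted p = 0.902).

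Sesn3 (ENSMUSG00000032009, chromosome 9), a second sestrin, was too low for the filter. It stood at 0.284, 0.275 and 0.331 FPKM in male libraries labelled knockout, against 0.370, 0.346 and 0.484 FPKM in male controls. The male groups did not overlap, at 74.1% of the control mean. In females Sesn3 stood at 0.431, 0.372 and 0.305 FPKM in libraries labelled knockout, against 0.452, 0.476 and 0.350 FPKM in controls, and these groups overlapped. Without the filter on low FPKM the female difference was -0.06 (limma adjusted p = 0.727).

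Pik3ip1 (ENSMUSG00000034614, chromosome 11), a transmembrane inhibitor of PI3K, was the 1 gene whose female groups were apart with the knockout label higher. It stood at 0.977, 1.18 and 0.652 FPKM in female libraries labelled knockout, against 0.518, 0.521 and 0.641 FPKM in female controls. The female groups did not overlap, at 167% of the control mean, but library 3 of the knockout label lay next to control 3. The 2 high values, 0.977 and 1.18 FPKM, were those of the 2 knockout-labelled libraries with a high interferon response, while control 2, which shared that response, stood at 0.521 FPKM. The part of the interferon response in this difference was not tested. In the fit without the filter on low FPKM the difference was 0.30 (SE 0.112, limma adjusted p = 0.336), so it did not pass the test. In males Pik3ip1 stood at 0.294, 0.463 and 0.508 FPKM in libraries labelled knockout, against 0.459, 0.530 and 0.624 FPKM in controls, and these groups overlapped.

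Nuak1 (ENSMUSG00000020032, chromosome 10), an AMPK-related kinase activated by LKB1, had the largest male difference of the 10 genes on the log2(FPKM + 1) scale. It stood at 1.00, 1.26 and 1.33 FPKM in male libraries labelled knockout, against 2.99, 2.64 and 2.17 FPKM in male controls. The highest male library labelled knockout was below the lowest control, and the mean was 46.1% of the control mean, a difference of -0.71 (SE 0.0954). With a smaller pseudocount of 0.1 the difference was -1.05, since log2(FPKM + 1) understates differences at such low levels. In females Nuak1 stood at 2.92, 3.19 and 2.89 FPKM in libraries labelled knockout, against 2.90, 2.82 and 2.75 FPKM in controls. The female libraries were all near the level of the male controls, overlapped between the labels, and differed by 0.07 (SE 0.0954, limma adjusted p = 0.777).

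Ccng2 (ENSMUSG00000029385, chromosome 5), an unconventional cyclin that is linked to cell cycle arrest, and Txnip (ENSMUSG00000038393, chromosome 3), which binds thioredoxin and lowers glucose uptake, had groups that were apart in males and overlapped in females. Ccng2 stood at 6.21, 6.86 and 8.44 FPKM in male libraries labelled knockout, against 10.09, 9.66 and 10.05 FPKM in male controls. The male groups did not overlap, at 72.2% of the control mean. In females Ccng2 stood at 9.73, 11.04 and 9.21 FPKM in libraries labelled knockout, against 10.6, 8.73 and 10.1 FPKM in controls, which is overlapping, with a difference of 0.03 (limma adjusted p = 0.922). Txnip stood at 79.4, 82.0 and 90.1 FPKM in male libraries labelled knockout, against 124, 120 and 100 FPKM in male controls. The male Txnip groups did not overlap either, at 72.9% of the control mean, although control 3 lay nearest to the libraries labelled knockout. In females Txnip stood at 139, 142 and 110 FPKM in libraries labelled knockout, against 119, 149 and 109 FPKM in controls. In both female groups library 3 was the lowest, and the groups overlapped, with a difference of 0.06 (limma adjusted p = 0.859).

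Klhl24 and Calcoco1 belong to protein and organelle turnover. Klhl24 (ENSMUSG00000062901, chromosome 16) encodes an adaptor of a Cullin 3 ubiquitin ligase, known in human skin for its action on keratin filaments, and Calcoco1 (ENSMUSG00000023055, chromosome 15) encodes a receptor for autophagy of the endoplasmic reticulum and Golgi. Klhl24 stood at 13.9, 13.3 and 14.2 FPKM in male libraries labelled knockout, against 19.6, 20.5 and 18.1 FPKM in male controls. The male groups were well apart, at 71.0% of the control mean. In females Klhl24 stood at 15.9, 16.0 and 17.9 FPKM in libraries labelled knockout, against 18.9, 17.8 and 19.4 FPKM in controls. Each female library labelled knockout was below the control of its number, but knockout 3 just passed control 2. The female difference was -0.16 (SE 0.0682, limma adjusted p = 0.419) at 89.0% of the control mean.

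Calcoco1 had the smallest SE of the 8 tested genes in the fit. It stood at 4.93, 4.46 and 4.68 FPKM in male libraries labelled knockout, against 6.71, 7.01 and 6.29 FPKM in male controls. The male groups were apart, at 70.3% of the control mean, a difference of -0.43 (SE 0.0559). In females it stood at 6.33, 6.32 and 6.16 FPKM in libraries labelled knockout, against 6.22, 6.37 and 6.33 FPKM in controls. All 6 female libraries lay within a narrow band, with a difference of -0.01 (SE 0.0559, limma adjusted p = 0.966).

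Tcp11l2 (ENSMUSG00000020034, chromosome 10), a gene of the t-complex 11 family, was lower in the libraries labelled knockout of both sexes. It stood at 16.5, 15.7 and 15.9 FPKM in male libraries labelled knockout, against 21.7, 24.4 and 20.5 FPKM in male controls. In females it stood at 16.4, 16.4 and 17.2 FPKM in libraries labelled knockout, against 20.1, 19.5 and 18.8 FPKM in controls. In each sex the groups did not overlap, at 72.2% of the control mean in males and 85.6% in females. The female difference was -0.21 (SE 0.0676) and did not pass after adjustment over all genes (limma adjusted p = 0.379). An exact two-sided permutation test gave p = 0.1, the smallest that 3 libraries against 3 can give. Without the 3 libraries of high interferon response, which leaves 1 female library labelled knockout against 2 controls and takes its spread from the other groups, the female difference was -0.17 for Tcp11l2 and -0.09 for Klhl24.

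Cited2 (ENSMUSG00000039910, chromosome 10), a co-regulator that competes with HIF-1alpha for CBP and p300, was, with Pik3ip1, 1 of the 2 genes whose male groups overlapped. It stood at 77.1, 81.7 and 83.3 FPKM in male libraries labelled knockout, against 93.1, 94.1 and 77.3 FPKM in male controls. The overlap was through control 3, and the mean was 91.5% of the control mean. In females it stood at 70.5, 75.1 and 84.0 FPKM in libraries labelled knockout, against 79.2, 80.5 and 79.3 FPKM in controls, with a difference of -0.06 (limma adjusted p = 0.775).

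**Figure D1:**
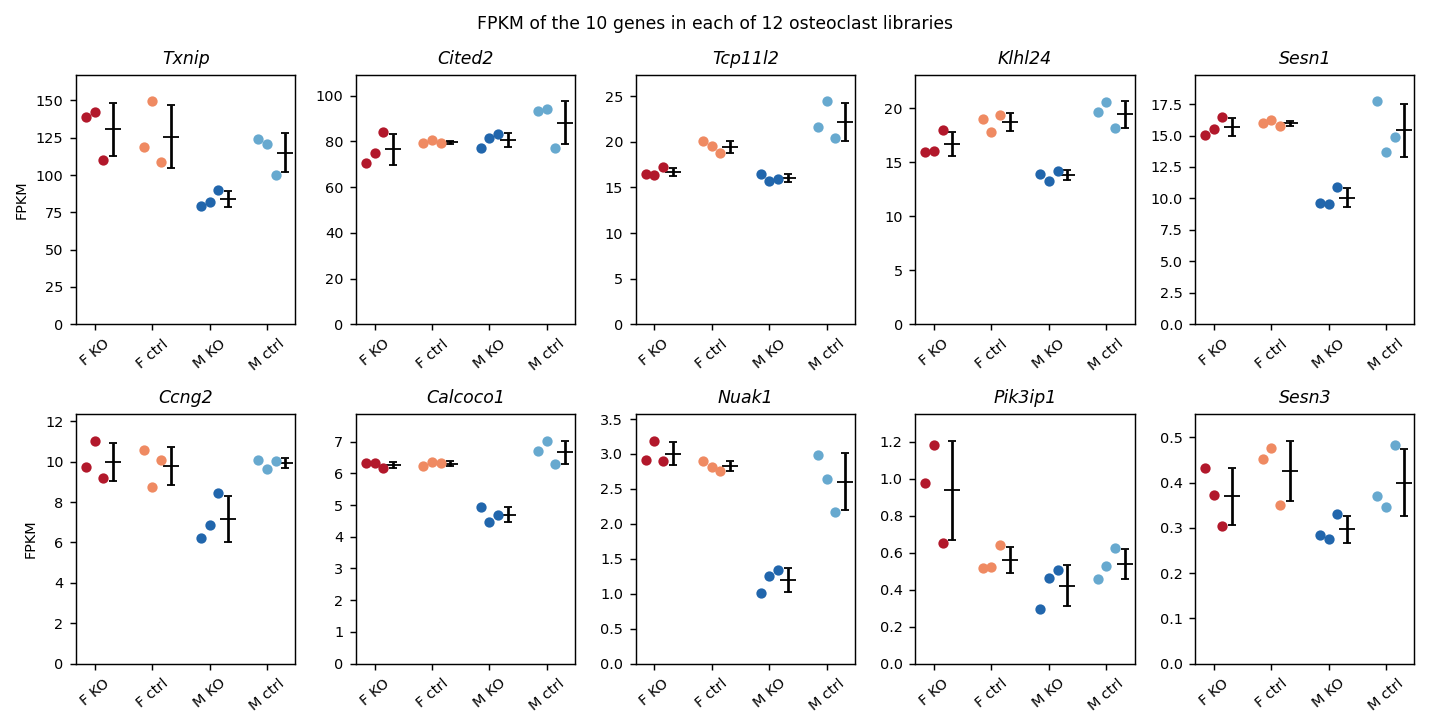
FPKM (vertical axis, from 0) of each of the 10 genes in 12 libraries; F and M are female and male, KO and ctrl the libraries labelled knockout and control, points are libraries 1 to 3 and black marks the mean with SD (n = 3). For Nuak1 the male libraries labelled knockout sit at 1.00 to 1.33 FPKM, below the other 9 libraries, whereas for Cited2 the 4 groups overlap.

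In the female comparison, then, none of the 8 tested genes passed the limma test over all genes, in which 0% of 12237 genes were called, and voom on rebuilt fragments called 0 of them as well. At an unadjusted p under 0.05 there were 2 of 8, Tcp11l2 and Klhl24, both lower, where 6.09% of all genes were lower and 5.27% higher at that level, 11.4% in all. Groups that did not overlap were lower for Tcp11l2, where 6.85% of all genes were, and higher for Pik3ip1, where 6.38% were. Of the 8 differences 5 were negative and 3 positive, with a median of -0.02 beside -0.0083 over all genes. Osteoclast markers lay in the direction of Tcp11l2 and Klhl24, and not of the 8 genes as a set. All 14 of their differences were negative in females, with a median of -0.19. At an unadjusted p under 0.05, 3 of 14 osteoclast markers (Ctsk, Atp6v0d2 and Car2) were lower, while 0 passed. They summed to 10486, 10331 and 13131 FPKM in female libraries labelled knockout and 15218, 12486 and 14303 FPKM in female controls, which overlap, and their part in the female values of Tcp11l2 and Klhl24 was not tested. In the male comparison the libraries of 8 of the 10 genes did not overlap, all of them lower in libraries labelled knockout, where 10.9% of all tested genes did the same and 0.00817% of genes (1, Cx3cr1) passed the limma test. That count over all genes was 0 without male knockout 2, male control 1 or male control 2, and 64 without male control 3. Since the male libraries brought these genes forward, nothing is read from the 8 of 10. The male median of the 8 tested genes was -0.44, beside -0.0049 over all genes.

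**Figure D2:**
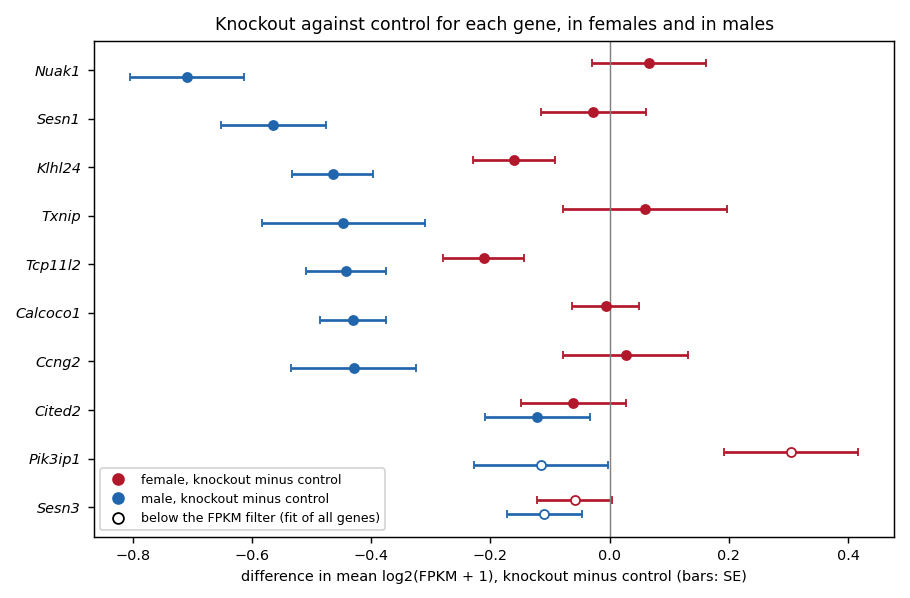
Difference in mean log2(FPKM + 1) between libraries labelled knockout and control (horizontal axis), with its SE, in females (red) and males (blue); open points are the 2 genes below the FPKM filter, from the fit of all genes. Male points run from -0.71 for Nuak1 to -0.11 for Sesn3 and Pik3ip1, and female points from -0.21 for Tcp11l2 to 0.30 for Pik3ip1.

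The female minus the male difference holds the male values that chose the genes, so its size is given as a description. It was 0.77 (SE 0.135) for Nuak1, 0.54 (SE 0.124) for Sesn1, 0.51 (SE 0.194) for Txnip and 0.46 (SE 0.148) for Ccng2. It was 0.42 (SE 0.0791) for Calcoco1, 0.30 (SE 0.0964) for Klhl24, 0.23 (SE 0.0956) for Tcp11l2 and 0.06 (SE 0.125) for Cited2. Over all genes 0% passed the limma test of this difference, so none of the 8 did, and voom also called 0. Since the male values chose the genes, this test cannot decide whether the knockout difference of any of the 8 differs between the sexes, and nothing is read from it.

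**Figure D3:**
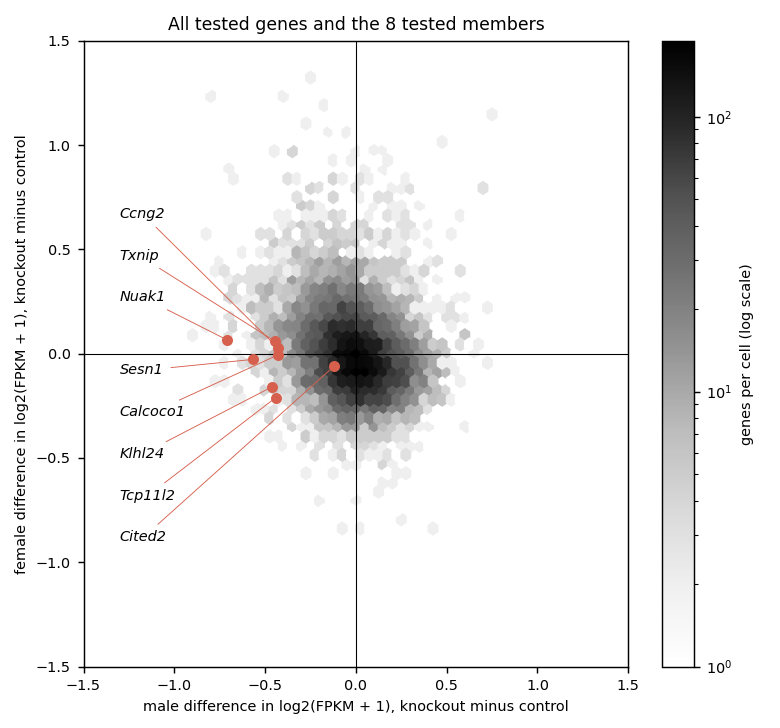
Male (horizontal) and female (vertical) differences in log2(FPKM + 1), libraries labelled knockout minus control, for the tested genes within 1.5 of 0; grey shade counts genes on a log scale and red points are the 8 tested members. The red points lie left of 0 by 0.12 to 0.71, while on the vertical axis they lie between -0.21 and 0.07.

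The male controls were part of the comparison that chose the genes, so female against male controls is given as a description. Female against male controls, 0 of the 8 tested genes passed the limma test, where 0.0572% of all genes did, and adjusted p ran from 0.843 to 0.981. Tcp11l2, at 18.8 to 20.1 FPKM in female controls and 20.5 to 24.4 FPKM in male controls, was the one gene of the 8 whose controls did not overlap, where 3.65% of all genes were lower and apart and 5.53% higher and apart. The difference was -0.18 (limma adjusted p = 0.843). It was also the 1 gene of the 8 at an unadjusted p under 0.05, where 2.53% of all genes were lower and 3.05% higher, 5.57% in all. The choice of the genes favours high male controls, so nothing is read from this gene or from the 0 of 8.

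The 8 tested genes were chosen for low values in the same male libraries, which favours positive correlations between them over the 12 libraries. Of their 28 pairs 27 had a positive Pearson r, from -0.06 for Txnip with Cited2 to 0.95 for Nuak1 with Sesn1, with a median of 0.733. Once the group means were removed, 22 of 28 were positive, from -0.32 to 0.757 with a median of 0.207. Averaged over the 8 genes as a z-score, the libraries of male mice labelled knockout stood at -1.44, -1.37 and -0.94, against 0.95, 0.90 and 0.15 in male controls. The female libraries overlapped the male controls, at -0.01, 0.25 and 0.25 in those labelled knockout and 0.48, 0.44 and 0.34 in controls. Male control 3 was thus nearer to the female libraries than to the other male controls.

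Of 8958 genes with a mean of at least 2 FPKM, those whose levels followed this average, which carries the same choice, most closely over the 12 libraries were Arrdc4 (r = 0.956), Trp53inp1 (0.954), Pink1 (0.940), Sirpa (0.926) and Slc49a4 (0.922). Arrdc4 is an arrestin-family relative of Txnip, Trp53inp1 a p53-induced protein of autophagy and Pink1 a kinase of mitochondrial quality control. Trp53inp1 averaged 9.84 ± 0.662 FPKM in male libraries labelled knockout and 15.6 ± 1.93 FPKM in male controls (SD, n = 3 each). The genes that ran most nearly opposite were Noc2l (r = -0.963), Aen (-0.963), Mcm2 (-0.956), Ergic1 (-0.950) and Mybl2 (-0.944). Mcm2 is a subunit of the replicative helicase and Mybl2 a transcription factor of the cell cycle. Mcm2 averaged 14.3 ± 0.644 FPKM in male libraries labelled knockout and 10.3 ± 1.13 FPKM in male controls. Without the 2 libraries farthest from the median, r stayed between 0.787 and 0.893 for the first 5 genes and between -0.949 and -0.861 for the others.

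The rest of the FoxO pathway was described from lists of its factors, regulators and targets. Of the factors, Foxo3 and Foxo4 were the abundant ones, Foxo1 stood near 2 FPKM or below and Foxo6 was listed at 0. Foxo4 averaged 5.56 ± 0.448 FPKM in male libraries labelled knockout and 6.77 ± 0.294 FPKM in male controls, a difference of -0.25 (limma adjusted p = 0.204). Foxo3 averaged 6.54 ± 0.344 FPKM in male libraries labelled knockout and 7.65 ± 0.476 FPKM in male controls, a difference of -0.20 (limma adjusted p = 0.231). Foxo1 differed by -0.05 in males. None of the 3 passed. At an unadjusted p under 0.05, 2 of the 3 tested factors were lower in males, where 6.54% of all genes were. In females none of the 3 was under that level.

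Of 24 tested regulators of FoxO, among them the PI3K and Akt genes, 0 passed in either sex. At an unadjusted p under 0.05 there were 1 lower in females and 3 lower in males, where 6.09% and 6.54% of all genes were, and the medians were 0.02 in females and -0.06 in males. Sgk1, a kinase that phosphorylates FoxO factors, averaged 6.23 ± 0.945 FPKM in male libraries labelled knockout and 9.62 ± 2.49 FPKM in male controls (difference -0.54, limma adjusted p = 0.165). Irs2, an adaptor of the insulin receptor, differed by -0.35 in males (limma adjusted p = 0.268) and Pik3cg, a PI3K catalytic subunit, by -0.23 (limma adjusted p = 0.32). In females the lowest p belonged to the deacetylase Sirt1, at -0.15 (limma adjusted p = 0.419), the Akt phosphatase Phlpp1, at 0.14 (limma adjusted p = 0.442), and the PI3K subunit Pik3r1, at -0.23 (limma adjusted p = 0.444). Of 42 other tested targets of FoxO, 0 passed in either sex. In males 14 were lower and 1 higher at an unadjusted p under 0.05, where 6.54% and 8.09% of all genes were (14.6% in either direction), and the list median was -0.18. Without male control 1 the count of 14 was 8. Hbp1, a transcription factor that restrains the cell cycle, averaged 9.68 ± 0.0231 FPKM in male libraries labelled knockout and 12.95 ± 0.194 FPKM in male controls (difference -0.39, limma adjusted p = 0.105). Pink1 averaged 16.0 ± 1.24 FPKM in male libraries labelled knockout and 24.6 ± 4.09 FPKM in male controls (difference -0.58, limma adjusted p = 0.105). The histone demethylase gene Kdm7a differed by -0.35 at the same adjusted p.

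In females the targets gave 2 lower and 1 higher at an unadjusted p under 0.05, where 6.09% and 5.27% of all genes were, with a list median of -0.01. Cat, the catalase that removes hydrogen peroxide, averaged 38.5 ± 4.67 FPKM in female libraries labelled knockout and 47.3 ± 2.06 FPKM in female controls (difference -0.30, limma adjusted p = 0.401). Prdx3, a mitochondrial peroxidase, differed by -0.26 (limma adjusted p = 0.409). Bbc3, which encodes the apoptosis inducer PUMA, averaged 10.1 ± 0.775 FPKM in female libraries labelled knockout and 7.12 ± 1.28 FPKM in female controls (difference 0.46, limma adjusted p = 0.438).

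The list of growth genes held Myc, cyclins and genes around mTORC1. Inhibitors of mTORC1 such as Tsc1, Tsc2 and Nprl2 are among them, so the list is not read for a direction. Of its 18 tested genes 0 passed in either sex. The 2 that were higher in males at an unadjusted p under 0.05, where 8.09% of all genes were, were Myc and Ccnd1. Myc, a driver of growth, averaged 33.2 ± 1.68 FPKM in male libraries labelled knockout and 24.8 ± 1.78 FPKM in male controls (difference 0.41, limma adjusted p = 0.105). Ccnd1, the cyclin of G1, averaged 16.7 ± 1.31 FPKM in male libraries labelled knockout and 9.74 ± 1.71 FPKM in male controls (difference 0.73, limma adjusted p = 0.146). Rps6kb1, the S6 kinase under mTORC1, differed by 0.10 in males (limma adjusted p = 0.398). In females, where 0 of the 18 were under that level, the lowest p belonged to Sec13 (-0.14), Mlst8 (0.14) and Nprl2 (-0.11), with limma adjusted p from 0.486 to 0.546. Of 14 proliferation markers 10 were higher in males at that level and 0 lower, where 8.09% and 6.54% of all genes were, all 14 differences were positive, 0 passed, and the median was 0.30. The 10 became 6 without male knockout 2, 5 without male knockout 3, 5 without male control 1 and 6 without male control 2. In females none of the proliferation markers was under that level, and their median was -0.08.

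Of 22 tested relatives and partners of the 10 genes, 0 passed, with 3 lower in males, where 6.54% of all genes were, and 7 lower and 1 higher in females, where 6.09% and 5.27% were, at an unadjusted p under 0.05. In males the 3 were arrestin-family relatives of Txnip. Arrdc4 averaged 6.82 ± 0.648 FPKM in male libraries labelled knockout and 9.46 ± 0.798 FPKM in male controls (difference -0.42, limma adjusted p = 0.0862), and Arrdc2 and Arrdc3 differed by -0.32 and -0.30 (limma adjusted p = 0.239 and 0.248). In females Sqstm1, the autophagy receptor p62, averaged 134 ± 9.93 FPKM in libraries labelled knockout and 156 ± 3.09 FPKM in controls (difference -0.22, limma adjusted p = 0.366). Cab39, a partner of the kinase LKB1, differed by -0.20 in females (limma adjusted p = 0.38). Mlxip, the glucose sensor MondoA that drives Txnip, averaged 14.1 ± 0.734 FPKM in female libraries labelled knockout and 11.9 ± 0.747 FPKM in female controls (difference 0.23, limma adjusted p = 0.379).

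**Figure D4:**
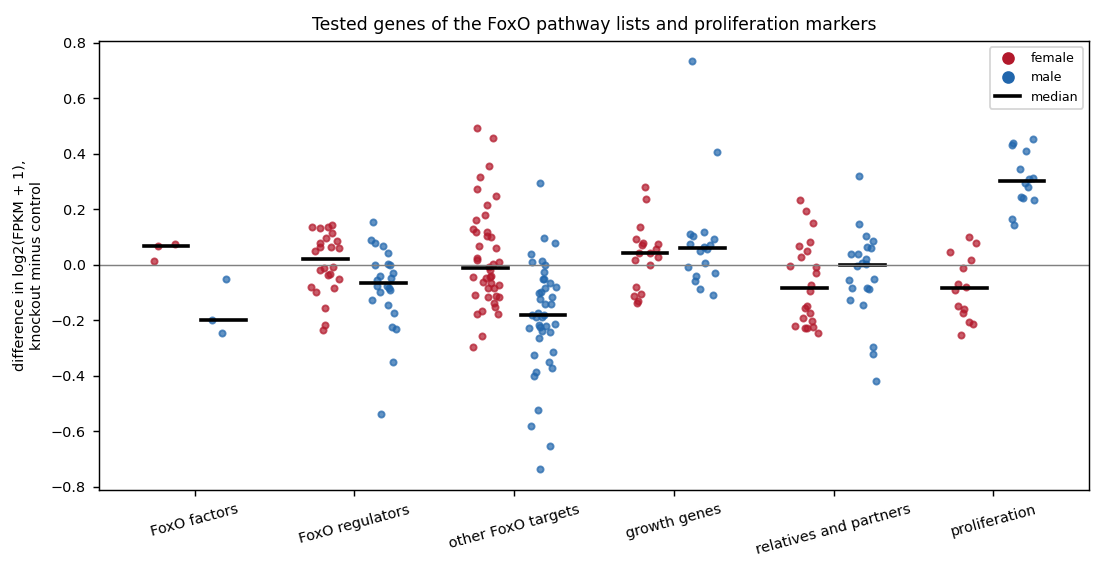
Difference in log2(FPKM + 1) between libraries labelled knockout and control (vertical axis) for each tested gene of 5 FoxO pathway lists and of the proliferation markers, in females (red) and males (blue), with list medians as black bars. Male medians are -0.18 for the other FoxO targets and 0.30 for proliferation markers, and female medians -0.01 and -0.08.

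Markers of some other cells also leaned lower in male libraries labelled knockout. All 13 monocyte and macrophage markers were lower in male libraries labelled knockout, with a median of -0.51, and 1 of them, Cx3cr1, passed the limma test. Their FPKM summed to 4747 to 6301 in male libraries labelled knockout and 6262 to 8519 in male controls. These sums overlapped, as male knockout 3 lay just above male control 2. MHC class II and dendritic cell markers summed to 280 to 406 FPKM in male libraries labelled knockout and 429 to 600 FPKM in male controls, and 0 of the 7 tested passed. Proliferation markers summed to 469 to 501 FPKM in male libraries labelled knockout and 359 to 442 FPKM in male controls. The osteoclast markers overlapped, at 12694 to 14478 FPKM in male libraries labelled knockout and 12564 to 18353 FPKM in male controls. Neutrophil markers overlapped too, at 1469 to 2075 FPKM in male libraries labelled knockout and 1408 to 2816 FPKM in male controls. So did the sums of lymphocyte, erythroid, stromal, endothelial, and mast cell, basophil and eosinophil markers. No marker of these lists was at 0 in all libraries, while the T cell genes Cd3e, Cd3d and Cd8a and the NK cell gene Ncr1 stayed under 1 FPKM everywhere. The part of these cells in the male values of the 10 genes was not tested.

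**Figure D5:**
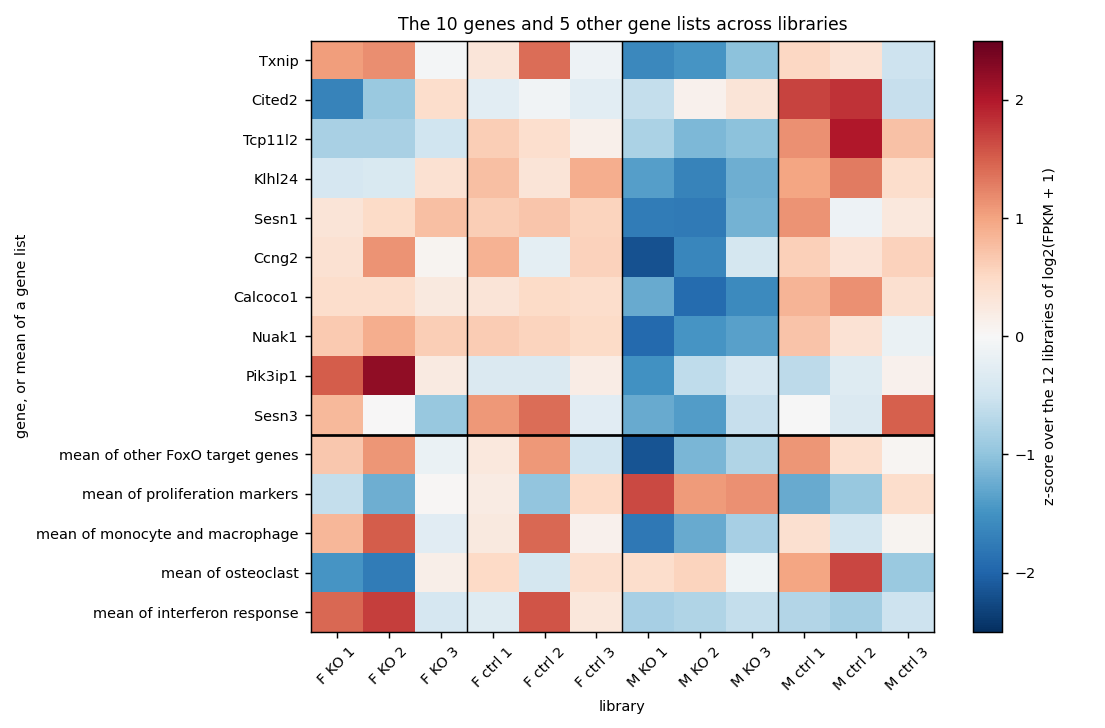
z-score of log2(FPKM + 1) over 12 libraries (colour) for the 10 genes above the line and for the mean of 5 other gene lists below it; columns are libraries by group, F and M female and male, KO and ctrl the labels. The male libraries labelled knockout are low for most of the 10 genes and for monocyte and macrophage markers and high for proliferation markers, and the interferon row is high in female knockout 1, knockout 2 and control 2.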

How the data were processed

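RNA-seq of 12 osteoclast libraries was used, in 4 groups of 3 by the sex and genotype labels. The authors deposited 1 table of FPKM. Build mm10 and the tools featureCounts 1.5.0-p3 and HISAT2 2.0.5 are listed in the submitters' processing notes, without roles, parameters or a strand setting. Coordinates in the table equalled those of GENCODE M21 for 2.87% of 52080 shared identifiers, so none are printed from it. Multiplied by gene length, 100% of the values came out as whole steps (tolerance 0.01 fragments), and fragments were rebuilt from this for totals and for voom.

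Because FPKM are not counts, log2(FPKM + 1) was the scale of the fit, made with limma 3.58.1 (R 4.3.3) over the 12 libraries, with a mean per group, a variance trend and two-sided p-values, adjusted by Benjamini-Hochberg with a threshold of 0.05 over the 12237 genes with 1 FPKM in 3 libraries. This scale understates changes of low genes. The fit was checked on simulated data. An emptied line of the table was left out. The members, the lists and the choice of tests were made with earlier results of these data known. The named genes were the members, the 3 of lowest p per sex in each FoxO list, and the 5 most and 5 least like the members' average. Beyond those, Per1, Xist and Ddx3y were label checks: Xist was 40.5 FPKM or more in female libraries and 0.0035 or less in male ones, and Ddx3y was 13.6 FPKM or more in male libraries and 0 in female ones. The glucocorticoid list gave 1 lower and 2 higher of 10 tested genes in males at an unadjusted p under 0.05. At that level 6.54% of all genes were lower and 8.09% higher, 14.6% in all. In females 0 of the 10 were under it, and 0 passed in either sex. Neutrophil markers summed to 1408 to 2927 FPKM over the libraries, lymphocyte markers to 4.16 to 23.7, stromal to 1.76 to 6.08, erythroid to 1.30 to 7.37, endothelial to 4.81 to 10.1, and mast cell, basophil and eosinophil markers to 17.4 to 47.8.

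The replicate number in the titles was used to pair libraries of different groups, as a possible batch. Of 18 same-numbered pairs 4 had deviations from the group means that correlated above 0.1, and the 18 ran from -0.217 to 0.44. The mean r was -0.0034 over these pairs and -0.00066 over differently numbered libraries of different groups. Same-numbered libraries were thus no more alike than others on average. Alternatives varied the pseudocount, filter, scaling, variance model, libraries and replicate block, and left out each library in turn.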

Additional observations from a re-analysis of the deposited data

Results flagged for a closer look

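For 2 of the 10 genes every same-numbered pair of libraries moved one way in females and the other way in males. The male side of this is what the genes were chosen by, so only the female side is free of that choice. How many of all genes had such a pattern was not counted, so nothing is read from the 2. Nuak1 was higher in the library labelled knockout in 3 of 3 female pairs, but in pair 1 by only 0.0084 on the log2(FPKM + 1) scale, and its female difference did not pass (limma adjusted p = 0.777). Its female minus male difference was 0.77, which holds those male values. It is given as a description and did not pass either. Pik3ip1 was higher in 3 of 3 female pairs, by 0.0096 in pair 3. Its female minus male difference was 0.42 in the fit without the filter on low FPKM, again a description, and did not pass.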

How the results depend on the processing

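The male differences of the 8 tested genes kept their sign in all 19 alternatives, from -1.08 to -0.63 for Nuak1 at one end and from -0.21 to -0.07 for Cited2 at the other. The male values chose these genes, which favours a kept sign, so nothing is read from it. In females the call of 0 of the 8 genes held except with library weights, which called 3 (Klhl24 -0.23, Tcp11l2 -0.24 and Txnip 0.22). With those weights 2323 of all 12237 genes were called higher and 2567 lower in females, so nothing is read from the 3. For the difference between the sexes, which holds the male values that chose the genes, weights called 7. There 1829 of all 12237 genes were called higher and 2074 lower. The weight estimation stopped before it converged and gave female knockout 1 a weight of 9.11, against 0.286 to 3.18 for the others. The exact permutation test left 2 genes at its smallest p, and 3 with median ratio rescaling.

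Counts over all genes moved more. Female genes called, 0 in the reported fit, were 75 with no filter, 3 with no variance trend, 4890 with library weights, 2 without the 3 libraries of high interferon response (which leaves 1 female library labelled knockout, assumed to vary like the other groups) and 0 to 1 with 1 library left out. Male genes called, 1 in the reported fit, were 4 and 3 with pseudocounts of 0.1 and 0.5, 2 with no filter, 6 with median ratio rescaling, 1182 with weights, 5 with voom, 0 with the libraries of 1 sex alone, 0 without the 3 libraries, 0 with the replicate block within sex and 0 to 64 with 1 library left out. Genes called for the difference between the sexes were 1 with a pseudocount of 0.1, 16 with no filter, 3903 with weights, 1 without the 3 libraries and 0 to 1 with 1 library left out. Left out in turn, the male libraries gave 8 to 19 lower FoxO targets and 5 to 10 higher proliferation markers. The replicate block called 0 of the 8 genes in females and 0 for the difference, and changed no other call of a member.

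Differences near 0 changed sign. In females Calcoco1 was 0.019 with median ratio rescaling, 0.012 with weights, 0.030 with voom and -0.016 to 0.0046 with 1 library left out. Sesn1 was 0.00051, 0.0072 and 0.049 with median ratio rescaling, voom and without the 3 libraries, and -0.061 to 0.0010 with 1 library left out. Ccng2 was -0.057 with weights, -0.15 without the 3 libraries, and from -0.046 (without control 2) to 0.079 with 1 library left out, being -0.041 without knockout 2. Txnip was -0.041 without the 3 libraries, -0.0074 without knockout 2 and -0.037 (without control 3) to 0.19 with 1 library left out, and Cited2 was 0.082 without the 3 libraries. For the difference between the sexes Cited2 was -0.00055 with weights and -0.0078 (without female knockout 3) to 0.15 with 1 library left out. Between female and male controls Ccng2 was 0.040 with weights, 0.051 without the 3 libraries and -0.075 to 0.051 with 1 library left out, Txnip was -0.0069 with weights and -0.011 without the 3 libraries or without female control 2, and Sesn1 was -0.021 (without male control 2) to 0.16 with 1 library left out. The cause of these changes was not tested.

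Pik3ip1 and Sesn3 rest on 20 to 162 fragments a library, which limits their precision.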
